A study of Mus musculus with 6 samples.

Results

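The collagen genes were followed through RNA sequencing of the gastrocnemius, the main calf muscle, of dysferlin-deficient and control mice. A gene was taken as a member when its mouse symbol was Col, a number, a and a number, and when its read-pair counts summed to 30 or more over the 6 libraries. Of 57010 genes in the deposited count matrix, 44 carried such a symbol and 43 reached the count minimum. Col6a4 did not. The groups were 3 animals of the strain B6.A-Dysfprmd/GeneJ, also called BLAJ, homozygous for the Dysfprmd mutation (genotype Dysfprmd/Dysfprmd), and 3 wild type C57BL/6 animals. All were untreated and 3 months old. Males made up the whole control group and supplied mutant replicate 3, whereas mutant replicates 1 and 2 were females, so both females of the series carried the mutation. Each library came from 1 animal, named as an independent biological replicate in the labels.

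Collagens are matrix proteins built from 3 chains wound into a triple helix. Types I, III, V and XI form banded fibrils, type IV forms the network of basement membranes, and type VI forms beaded filaments between those layers. In muscle they make up the endomysium around each fibre, the perimysium, the vessel walls and the tendon junction, and their main source is the fibroblast of the interstitium. Fibrosis, the replacement of muscle by collagen-rich matrix, is a late feature of many muscular dystrophies. Dysferlin, the protein lost in this strain, takes part in resealing the torn membrane of the muscle fibre.

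The deposited count matrix held 35042245 to 43733641 read pairs per library. Values below are CPM, read-pair counts scaled to library size after TMM normalization, and 3 counts correspond to 0.0680 to 0.0827 CPM, a limit that covers counting error only. Dysf measured 72.3 to 145 CPM across controls and 14.7 to 20.3 CPM across mutants, so the targeted gene followed the labels. The skeletal actin gene Acta1 lay between 27414 and 44901 CPM. The strain label of the controls is less sure: Ifi202b and H2-Ea-ps, which C57BL/6 mice do not express, reached 1.02 to 7.69 CPM and 2.37 to 3.44 CPM in the controls and at most 0.0264 CPM in the mutants. Strain, sex and the loss of dysferlin therefore cannot be told apart in the group comparison.

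Collagen RNA differed far more between animals than between the groups. The 43 genes together took 0.0972%, 0.207% and 0.687% of all counts in the control animals (replicates 1, 2 and 3 in this order throughout), and 0.147%, 0.111% and 0.885% in the mutant animals. Summed levels were 980, 2055 and 7162 CPM in the controls and 1439, 1071 and 9060 CPM in the mutants. One animal of each group, control replicate 3 and mutant replicate 3, stood high, and the other 4 lay together at the low end, so the ranges of the groups overlapped almost completely. The highest library exceeded the lowest by 9.25-fold in summed collagen. In bulk tissue, fewer cells of a type and less RNA per cell cannot be told apart.

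This unevenness ran through most of the family. Of 42 members that passed the filter on low counts, 25 (59.5%) had their highest level in mutant replicate 3, against 19.1% of the 15589 genes tested. A further 9 were highest in control replicate 3, so 34 of 42 peaked in these 2 libraries, against 34.7% of all genes tested. The lowest library was control replicate 1 for 21 members and mutant replicate 2 for 9. A range of 5-fold or more between the highest and lowest library was seen in 22 of 42 members, against 6.90% of all genes whose lowest library held 3 counts or more.

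**Figure D1:**
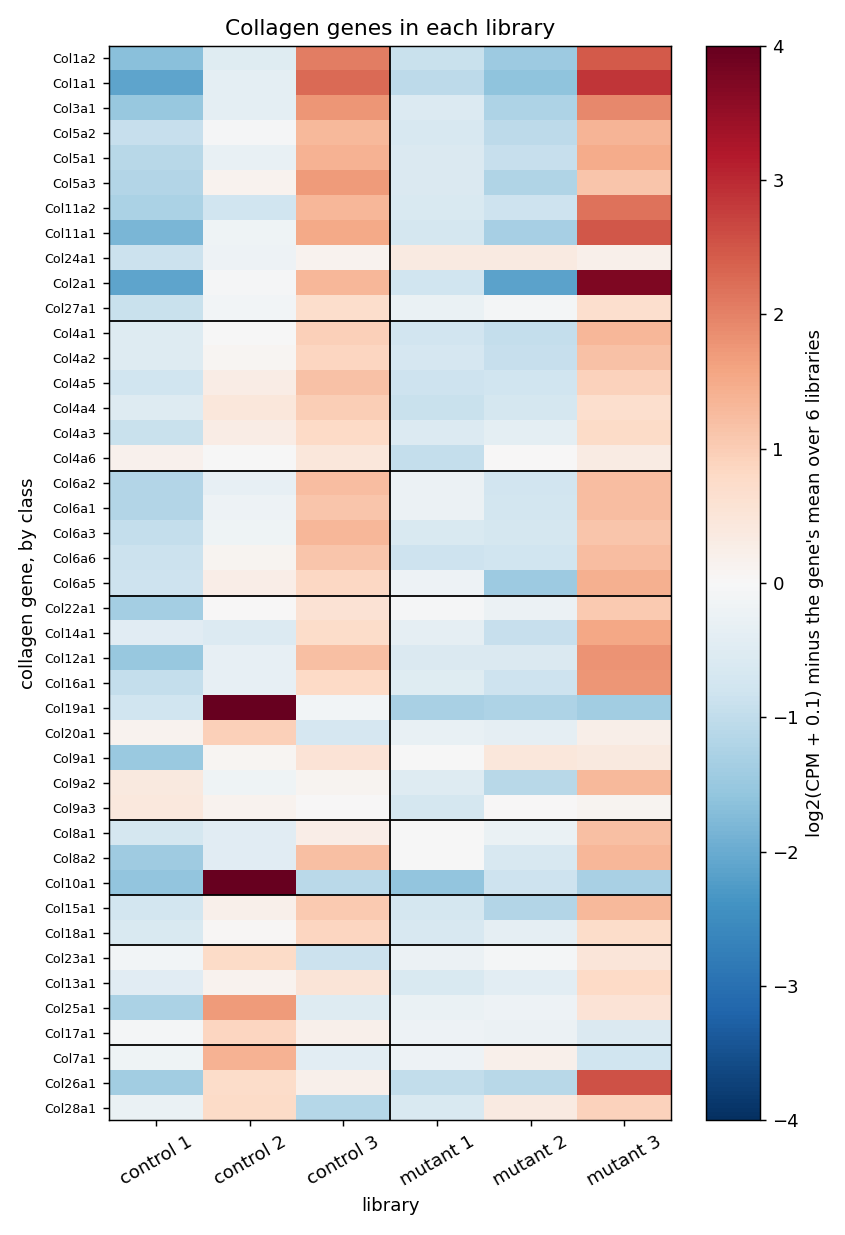
Level of each of the 43 collagen genes in each library, as log2(CPM + 0.1) minus the mean of that gene over the 6 libraries, with genes in rows by class and libraries in columns; colours are capped at -4 and 4. Most rows are red in control replicate 3 and mutant replicate 3, while Col19a1 and Col10a1 are red in control replicate 2 alone.

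By mean level per kilobase of merged exons, type I and III collagen stood highest, then type IV and VI, an order that did not hold in every animal. Col1a1 averaged 104 CPM per kilobase over the 6 libraries, Col1a2 78.1 and Col3a1 63.7. These were followed by Col4a1 at 35.9, Col6a1 at 28.2, Col4a2 at 23.4, Col6a2 at 15.6 CPM per kilobase. Each of the 3 leading genes spread 10.7-fold or more between animals, so their means lean on control replicate 3 and mutant replicate 3. Differences between neighbours in this order were not tested. In control replicate 1 Col4a1 came first of these 4 genes, at 155 CPM over 7.46 kilobases of exons. Col3a1 stood there at 140 CPM over 9.82 kilobases, Col1a2 at 156 CPM over 12.4 and Col1a1 at 69.1 CPM over 6.56. The order of the leading pair also depended on the length used, since with the longest coding transcript Col1a2 came to 182 and Col1a1 to 115 CPM per kilobase, an alternative chosen after seeing the data. At the other end Col9a2, Col17a1, Col4a6, Col9a3, Col6a5 and Col25a1 each averaged at most 0.160 CPM per kilobase.

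The fibrillar class carried the widest swing between animals. Its 11 genes summed to 454, 1062 and 5379 CPM in the controls and 813, 546 and 6960 CPM in the mutants, a 15.3-fold range, against 4.55-fold for the 6 basement membrane genes and 4.98-fold for the 9 FACIT genes. Col1a1, Col1a2 and Col3a1 together made up 68.0% and 70.7% of collagen counts in control replicate 3 and mutant replicate 3, and 37.4% to 47.6% in the other 4 libraries. In the 2 high animals collagen was thus not only more abundant but also of another make-up.

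**Figure D2:**
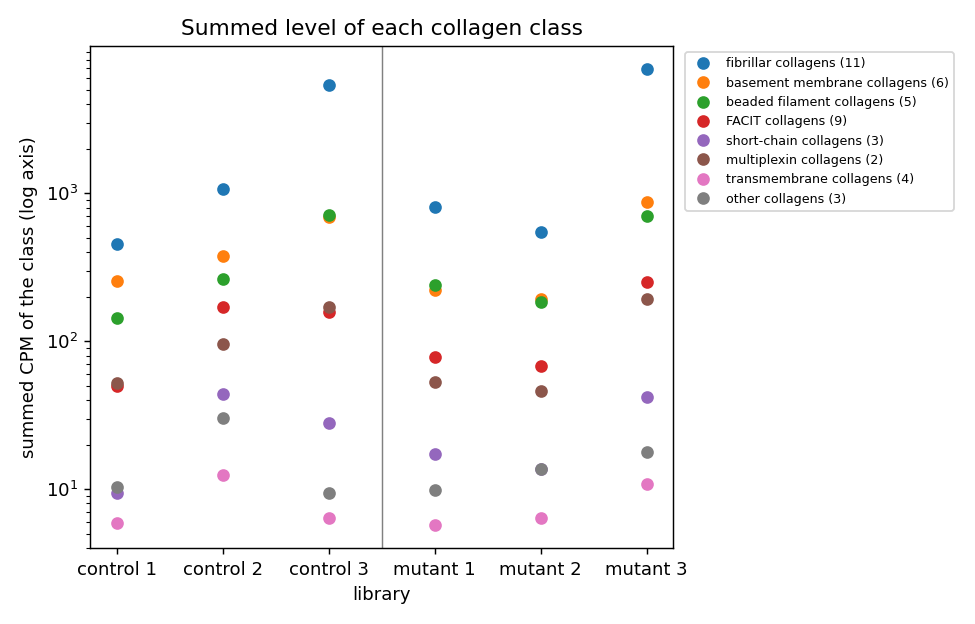
Summed CPM (log axis) of each collagen class in each of the 6 libraries, 1 point per library and class, with the number of genes in brackets. The fibrillar class reached 5379 CPM in control replicate 3 and 6960 CPM in mutant replicate 3 and stayed at or below 1062 CPM in the other 4.

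Col1a1 (ENSMUSG00000001506), which encodes the alpha-1 chain of type I collagen, the main fibril protein of tendon and bone, measured 69.1, 226 and 1424 CPM in the control animals. In the mutant animals it measured 144, 97.3 and 2131 CPM. The highest library thus exceeded the lowest by 30.8-fold, and 1 animal in each group was high. The means were 573 ± 741 CPM in controls and 791 ± 1161 CPM in mutants (SD, n = 3 each), with an SD above the mean in both.

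Col1a2 (ENSMUSG00000029661), the partner chain of type I, followed the same animals, at 156, 357 and 2083 CPM in the controls and 269, 183 and 2777 CPM in the mutants. Col3a1 (ENSMUSG00000026043), the single chain of type III, which is laid down with type I in soft tissue, stood at 140, 306 and 1361 CPM and at 271, 169 and 1502 CPM. The 2 high animals were nearer to each other in Col3a1 than in Col1a1. Fold changes between the groups, on the log2 scale, were 0.46 (SE 1.46) for Col1a1, 0.31 (SE 1.30) for Col1a2 and 0.10 (SE 1.08) for Col3a1, each smaller than its standard error (edgeR adjusted p = 0.975, 0.979 and 0.995).

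Type V collagen, which sits inside type I fibrils and limits their width, varied less. Col5a1 (ENSMUSG00000026837) measured 24.4, 43.3 and 139 CPM in controls and 35.7, 27.7 and 149 CPM in the mutants. Col5a2 (ENSMUSG00000026042) stood at 30.3, 54.8 and 141 CPM and at 36.8, 27.5 and 145 CPM. In both genes the 2 high animals nearly coincided and the other 4 lay at or below 54.8 CPM. Col5a3 (ENSMUSG00000004098), another chain of this type, was higher in control replicate 3 than in mutant replicate 3, at 19.8, 49.9 and 147 CPM in the controls and 30.3, 19.7 and 97.1 CPM in the mutants, and its groups overlapped too.

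Type XI and type II collagen, best known from cartilage, were again highest in mutant replicate 3, and type II was scarce. Col11a1 (ENSMUSG00000027966) measured 2.57, 8.41 and 27.4 CPM in controls and 5.74, 3.72 and 53.7 CPM in the mutants, a 20.9-fold range. Its partner Col11a2 ranged from 7.42 to 80.0 CPM, again with mutant replicate 3 on top. Col2a1 (ENSMUSG00000022483), the fibril chain of cartilage, measured 0.175, 1.04 and 2.82 CPM in controls and 0.582, 0.165 and 15.7 CPM in the mutants. That is a 94.8-fold range resting on mutant replicate 3, where 616 read pairs were counted against at most 111 in any other library. The log2 fold change of Col2a1 was 2.03 (SE 1.63, edgeR adjusted p = 0.873) with all libraries and -1.83 without mutant replicate 3.

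Col24a1 (ENSMUSG00000028197), a minor fibrillar collagen, was the exception of its class. It measured 2.00, 3.17 and 4.04 CPM in controls and 4.73, 4.71 and 4.25 CPM in the mutants. Every mutant thus lay above every control and the mutants lay close together. The means were 3.07 ± 1.03 and 4.56 ± 0.273 CPM (SD, n = 3 each). The difference of 0.57 on the log2 scale (SE 0.28) did not pass over all genes (edgeR adjusted p = 0.777). It was the only member with the mutants wholly above the controls, a pattern shown by 5.97% of all genes tested. Col27a1, the remaining fibrillar gene, lay between 1.65 and 5.16 CPM.

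The basement membrane collagens were high in the same 2 animals, over a narrower range. Col4a1 (ENSMUSG00000031502) measured 155, 220 and 429 CPM in controls and 130, 116 and 560 CPM in the mutants. Col4a2 (ENSMUSG00000031503) stood at 92.1, 140 and 242 CPM and at 84.1, 70.2 and 299 CPM. These 2 chains form the common type IV trimer, present around every fibre and capillary. In both genes the female mutants, replicates 1 and 2, lay below every control, and the male mutant above every control. Col4a3, Col4a4 (ENSMUSG00000067158) and Col4a5, the chains of a more restricted network, lay between 1.15 and 15.9 CPM, each with its highest level in control replicate 3. Col4a4 measured 1.57, 3.19 and 4.65 CPM in controls and 1.19, 1.38 and 3.69 CPM in the mutants, with overlapping groups. Col4a6 stayed at or below 0.915 CPM.

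Type VI collagen, whose loss causes Ullrich and Bethlem muscular dystrophy, differed little between the 2 high animals. Col6a1 (ENSMUSG00000001119) measured 45.3, 89.4 and 218 CPM in controls and 85.8, 61.7 and 240.0 CPM in the mutants. Col6a2 (ENSMUSG00000020241) stood at 46.3, 83.2 and 248 CPM and at 89.6, 62.0 and 248 CPM. Col6a3 (ENSMUSG00000048126), measured 46.8, 81.9 and 231 CPM in controls and 60.1, 56.0 and 199 CPM in the mutants. Control replicate 1 was the lowest library for all 3 genes, and the groups overlapped in each. Col6a6 lay between 4.25 and 18.5 CPM and Col6a5 between 0.110 and 1.43 CPM.

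Among the FACITs, collagens that decorate the surface of fibrils, Col12a1, Col14a1, Col16a1 and Col22a1 were highest in mutant replicate 3. Col22a1, a collagen of the myotendinous junction, measured 13.8, 35.8 and 52.6 CPM in controls and 34.4, 30.3 and 73.6 CPM in the mutants. Col12a1, found in tendon and muscle fascia, ranged from 5.82 CPM in control replicate 1 to 58.8 CPM in mutant replicate 3. Col14a1 ranged from 10.6 to 59.5 CPM and Col16a1 from 6.94 to 46.8 CPM. Type IX collagen, a cartilage FACIT, was low, with Col9a1 at 0.499 to 2.34 CPM, Col9a2 at 0.138 to 1.17 CPM and Col9a3 (ENSMUSG00000027570) at 0.132 to 0.400 CPM. Col9a3 measured 0.400, 0.317 and 0.280 CPM in controls and 0.132, 0.276 and 0.305 CPM in the mutants, with the groups overlapping.

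The multiplexins Col15a1 and Col18a1 and the short-chain genes Col8a1 and Col8a2 were highest in mutant replicate 3 or control replicate 3, unlike the third short-chain gene, Col10a1, which is described with the genes highest in control replicate 2. Col15a1 (ENSMUSG00000028339), which links basement membranes to the fibrils beside them, measured 37.2, 71.5 and 129 CPM in controls and 38.3, 27.6 and 153 CPM in the mutants. Col18a1, the source of endostatin, reached 42.5 CPM in control replicate 3, its highest library. Col8a1 (ENSMUSG00000068196), a collagen of vessel walls, measured 7.27, 8.59 and 14.2 CPM in controls and 11.6, 9.87 and 27.4 CPM in the mutants. Its log2 fold change was 0.70 (SE 0.44, edgeR adjusted p = 0.832), with 1 control above 2 of the mutants. Col8a2 ranged from 2.07 to 14.5 CPM.

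A smaller set of collagens had its highest level in control replicate 2 instead. It held 6 of the 42 tested members, no more than the share of all genes tested that peaked there (19.8%). Col19a1 (ENSMUSG00000026141), a FACIT expressed in differentiating muscle cells, measured 1.57, 84.4 and 2.59 CPM in the control animals and 1.08, 1.13 and 1.02 CPM in the mutants. Every mutant lay below every control, as in 6.09% of all genes tested, but 1 library held 3727 of the 4014 counts of the gene. Its log2 fold change of -4.77 (standard error 1.63, adjusted p = 0.655 by edgeR) became -0.95 without control replicate 2. It was the only member with an unadjusted p below 0.05, 2.38% of those tested against 6.94% of all genes.

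Col10a1, the collagen of hypertrophic cartilage, had 1372 read pairs in control replicate 2 and 1, 3, 1, 4 and 2 in control replicates 1 and 3 and mutant replicates 1, 2 and 3. It stood at 31.1 CPM in that library, was the 1 member that failed the filter on low counts, and was chosen for description after its values were seen. Col7a1 (ENSMUSG00000025650), the anchoring fibril of skin, measured 8.27, 24.2 and 6.94 CPM in controls and 7.98, 10.6 and 5.32 CPM in the mutants. Col17a1 (ENSMUSG00000025064), a hemidesmosome collagen, stood at 0.474, 0.997 and 0.585 CPM and at 0.423, 0.413 and 0.305 CPM. The mutants lay wholly below the controls in Col17a1 (log2 -0.85, SE 0.40, edgeR adjusted p = 0.754) and not in Col7a1 (log2 -0.73, SE 0.52, edgeR adjusted p = 0.842). In both genes control replicate 2 was the highest library.

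Col25a1, a transmembrane collagen needed for motor axons to reach muscle, was also highest in control replicate 2, at 2.02 CPM against at most 0.865 CPM elsewhere. Most markers on the list of satellite cells and of immature or denervated fibres were also highest in that library. All 8 genes of that list passed the filter, and 6 of them peaked in control replicate 2, against 19.8% of all genes tested. The sum of the 8, carried mostly by Sln, was 862 CPM there against 49.4 to 80.3 CPM in the other 5 libraries. Pax7 and Myh8, named after their values were seen, peaked elsewhere. Pax7 was highest in control replicate 3 (4.70 CPM, against 4.17 CPM in control replicate 2). Myh8 was highest in mutant replicate 3 (19.7 CPM, against 8.47 CPM in control replicate 2). Sln, which encodes sarcolipin, stood at 678 CPM against at most 14.6 CPM, and Myod1, a regulator of muscle commitment, at 51.6 CPM against at most 22.9 CPM. The part of these cells in the levels of Col10a1, Col19a1 and Col25a1 was not tested.

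Col20a1, Col23a1 and Col28a1 had their lowest level in control replicate 3, where most of the family was high, and are named after their values were seen. Col28a1, known from glial cells of peripheral nerve, measured 1.65, 3.42 and 0.839 CPM in controls and 1.27, 2.56 and 3.84 CPM in the mutants. Col23a1 stood at 3.65, 6.89 and 2.16 CPM and at 3.36, 3.78 and 5.65 CPM. Col20a1 stood at 5.94, 10.4 and 3.36 CPM and at 4.36, 4.13 and 6.31 CPM. In all 3 genes control replicate 2 and mutant replicate 3 were the 2 highest libraries. Markers of Schwann cells, which ensheathe axons, had the same ends: their 9 genes summed to 200, 415 and 124 CPM in the controls and 142, 247 and 568 CPM in the mutants, and 6 of the 9 were lowest in control replicate 3. Pmp22, which encodes a protein of peripheral myelin, was highest in mutant replicate 3 (144 CPM) and lowest in mutant replicate 1 (39.6 CPM), with 47.3 CPM in control replicate 3. The part of nerve content in these levels was not tested.

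Col26a1 (ENSMUSG00000004415) and Col13a1 complete the family. Col26a1, a small collagen described in developing gonads, measured 0.474, 2.42 and 1.63 CPM in controls and 0.661, 0.606 and 8.75 CPM in the mutants, so mutant replicate 3 stood alone. Its log2 fold change of 1.14 (standard error 1.13, adjusted p = 0.901 by edgeR) turned to -1.25 without that library. Col13a1, a transmembrane collagen of the neuromuscular junction, lay between 1.45 and 4.05 CPM.

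Between the groups no collagen gene passed. Of 42 tested, 24 were higher and 18 lower in the mutants, 0 were called by edgeR at an adjusted p below 0.05, against 0.199% of all genes tested (0.0128% higher and 0.186% lower), and the median log2 fold change was 0.06, against -0.00154 over all genes. The smallest adjusted p was 0.655, and 0 members passed in DESeq2 or limma-voom either, though DESeq2 gave no adjusted p for Col19a1. By class, 9 of 11 fibrillar genes were higher (median 0.31), 5 of 6 basement membrane genes lower (median -0.25) and 6 of 9 FACITs higher (median 0.37), none of them called. The authors' deposited table gave log2 fold changes of 0.45 for Col1a1 and 0.30 for Col1a2. Its smallest adjusted p was 0.763, for Col24a1, among the members that had one. It held no p-value for Col19a1 (log2 -4.78) and Col10a1 (log2 -7.38). The standard errors of Col1a1 and Col1a2, 1.46 and 1.30 on the log2 scale show how wide the spread between 3 animals a group left each estimate.

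**Figure D3:**
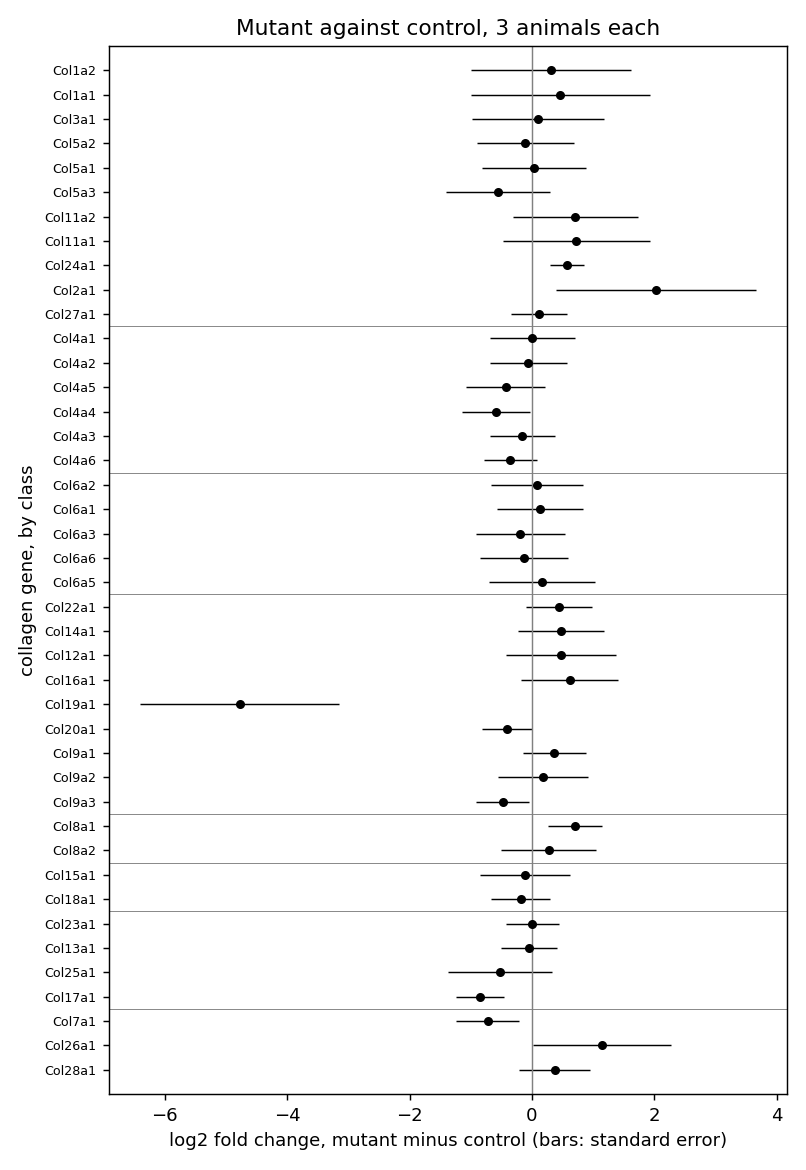
Fitted log2 fold change of each collagen gene that passed the filter, mutant minus control with 3 animals each, by class; bars are 1 standard error. Col19a1 lies at -4.77 and Col2a1 at 2.03, and 0 of 42 genes passed the test over all genes.

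The direction of the family followed whichever high animal was left in. Without mutant replicate 3, which leaves only female mutants, 39 of 42 members were lower in the mutants (median -0.84), where 53.2% of all genes were lower. Without control replicate 3, 33 of 42 were higher (median 0.63), against 49.4% of all genes. With sex as a covariate the group term rests on mutant replicate 3 against the 3 male controls, and 37 of 42 members were then higher (median 0.95) against 48.9% of all genes. Of the 42 members 6 had an unadjusted p below 0.05, against 5.66% of all genes, and 0 passed when adjusted. These 6 rest on the same mutant animal, so they are not separate results. In males only 37 of 43 were higher, against 48.1% of all genes. There Col1a1 had a log2 fold change of 1.89 and Col3a1 of 1.32 (edgeR adjusted p = 0.998 for both), with 1 mutant assumed to vary like the controls.

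**Figure D4:**
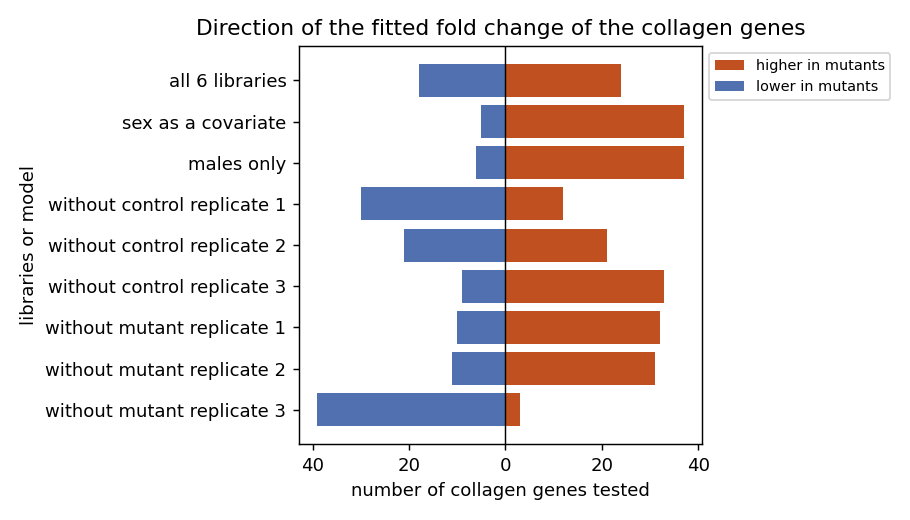
Number of collagen genes with a fitted change above 0 (right, higher in mutants) and below 0 (left, lower in mutants) in all 6 libraries, with sex in the model, in males only and without each library. The count of higher genes was 24 with all libraries, 3 without mutant replicate 3 and 33 without control replicate 3.

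The abundant partner chains of types IV, V and VI kept close proportions while their levels swung, and other partner chains did so less. The ratio of Col4a1 to Col4a2 in CPM ran from 1.55 to 1.87 over the 6 libraries, and that of Col6a1 to Col6a2 from 0.880 to 1.07. For Col5a1 to Col5a2 it ran from 0.790 to 1.02. These 3 ratios moved at most 1.30-fold where the genes themselves moved 4.26-fold to 6.09-fold. Within the same types, the ratio of Col6a3 to Col6a1 moved 1.51-fold, that of Col4a3 to Col4a4 1.70-fold and that of Col4a5 to the scarce Col4a6 3.27-fold. The ratio of Col11a1 to Col11a2 moved 2.39-fold. For Col1a1 to Col1a2 the ratio moved 1.74-fold, at 0.442, 0.634 and 0.683 in the controls and 0.535, 0.531 and 0.767 in the mutants. It was highest in the 2 animals with the most collagen. Between types, Col3a1 to Col1a1 was 2.03 in control replicate 1 against 0.956 in control replicate 3, and 1.88 in mutant replicate 1 against 0.705 in mutant replicate 3, and Col5a1 to Col1a1 ran from 0.0699 in mutant replicate 3 to 0.354 in control replicate 1.

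The genes that fold and modify collagen chains in the endoplasmic reticulum moved little in sum. Of 23, 12 were higher and 11 lower in the mutants, 0 were called, and the median was 0.03. Their sum ran from 912 to 1245 CPM, a 1.37-fold range, although 18 of the 23 peaked in control replicate 3 or mutant replicate 3, against 34.7% of all genes tested. Of the others, 3 peaked in control replicate 1 and 2 in mutant replicate 2. Single genes ranged further than the sum. Fkbp10 moved 5.96-fold and Creb3l1 8.82-fold, both with their 2 highest libraries in the 2 high-collagen animals. These 2 were named after their values were seen. P4hb, the shared subunit of prolyl hydroxylase, lay between 210 and 274 CPM. Mia3, which loads procollagen into export vesicles, measured 209, 165 and 191 CPM in controls and 139, 160 and 135 CPM in the mutants (log2 -0.38, SE 0.15, edgeR adjusted p = 0.677). Tmem38b, an ion channel of the reticulum needed for collagen export in bone, had a log2 fold change of -0.44 (standard error 0.18, adjusted p = 0.703 by edgeR). Serpinh1, the collagen chaperone HSP47, was named after its values were seen: it stood at 142, 77.5 and 186 CPM and at 84.8, 76.0 and 185 CPM, a far smaller range than that of the chains it binds.

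Genes that trim and crosslink procollagen outside the cell followed the collagens in their sum as well. All 13 that passed the filter had their highest level in mutant replicate 3 (11) or control replicate 3 (2), against 34.7% of all genes, and 0 were called between groups (11 higher, median 0.29). Their sum was 112, 160 and 320 CPM in the controls and 164, 126 and 405 CPM in the mutants. Pcolce, which speeds removal of the procollagen tail, stood at 30.4, 29.9 and 82.0 CPM and at 46.7, 31.8 and 95.2 CPM, and Pxdn, which crosslinks type IV collagen, ranged from 10.3 to 60.1 CPM. Pcolce2 and Tll1 had the smallest p of this list, with log2 fold changes of 0.40 (SE 0.30) and 0.45 (SE 0.45), neither of which passed (edgeR adjusted p = 0.851 and 0.901). Tll2 did not pass the filter.

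Among 13 proteins that bind collagen in the matrix, 11 were higher in the mutants, 0 were called and the median was 0.15. Sparc, a collagen-binding glycoprotein, swung with the family, at 213, 348 and 1092 CPM in the controls and 244, 223 and 1532 CPM in the mutants. Decorin, encoded by Dcn and made by fibroblasts throughout the tissue, did not, at 388, 408 and 458 CPM and at 392, 312 and 458 CPM. Fn1, the fibronectin gene, had a log2 fold change of 0.73 (standard error 0.41, adjusted p = 0.808 by edgeR) and Tgfbi of 0.60 (SE 0.29, edgeR adjusted p = 0.777). The same tissue thus held a 1.47-fold range of decorin RNA and a 30.8-fold range of Col1a1 RNA.

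Genes of collagen breakdown and its inhibitors were split, with 6 higher and 6 lower of 12 tested, 0 called and a median of -0.00124. The inhibitor gene Timp2 lay between 102 and 208 CPM and Timp3 between 75.7 and 128 CPM. Fap, a protease of activated fibroblasts, had a log2 fold change of 0.45 (standard error 0.29, adjusted p = 0.834 by edgeR). Mmp8, the neutrophil collagenase, measured 1.57, 0.521 and 0.356 CPM in controls and 0.211, 0.138 and 0.204 CPM in the mutants (log2 -2.12, SE 0.64, edgeR adjusted p = 0.559). Every mutant lay below every control, and control replicate 1 was furthest above. Mmp13 did not pass the filter.

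Collagen receptors had 9 of 11 genes higher in the mutants, 0 called and a median of 0.08. Itgb1, the beta-1 integrin chain, measured 236, 427 and 331 CPM in controls and 217, 218 and 294 CPM in the mutants (log2 -0.45, SE 0.24, edgeR adjusted p = 0.799). Ddr2, a receptor kinase for fibrillar collagen, lay between 26.3 and 44.6 CPM. Lair1, an inhibitory collagen receptor of leukocytes, measured 0.425, 0.340 and 0.432 CPM in controls and 1.98, 0.799 and 0.865 CPM in the mutants. The mutants were wholly above the controls in Lair1 (log2 1.60, SE 0.44), but the gene did not pass over all genes (edgeR adjusted p = 0.512).

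Markers of the cells that could carry collagen RNA were compared with it library by library. The 12 fibroblast markers all passed the filter, and their sum, carried mostly by Gsn at 791 to 990 CPM and by Dcn, was 1683 to 1925 CPM in the controls and 1604 to 1873 CPM in the mutants, a 1.20-fold range. Single markers ranged further, and 7 of 12 peaked in control replicate 3 or mutant replicate 3, against 34.7% of all genes tested. Ly6a moved 4.69-fold with its highest level in control replicate 1, Mfap5 3.78-fold with 38.2 CPM in mutant replicate 3 against at most 16.4 CPM elsewhere, and Dpt, Dpp4 and Clec3b 2.35-fold, 2.23-fold and 2.18-fold. These 5 were named after their values were seen. The sum of the tendon cell markers was highest in the same 2 animals as the collagens. Their 9 genes summed to 249, 293 and 887 CPM in the controls and 466, 324 and 759 CPM in the mutants, and none was at 0. Of the 9, 5 peaked in control replicate 3 and 3 in mutant replicate 3, 8 of 9 together, against 34.7% of all genes tested. Fmod, the fibromodulin gene, measured 97.4, 112 and 458 CPM in controls and 230, 151 and 326 CPM in the mutants, and Thbs4 ranged from 117 to 213 CPM. Tnmd, the tenomodulin gene that defines tendon, was named after its values were seen and stood at 2.35, 7.75 and 29.5 CPM and at 8.70, 4.35 and 45.8 CPM. Scx, also named after its values were seen, was the exception among the 9, with its highest level in control replicate 2. It measured 4.07, 18.7 and 11.9 CPM in controls and 6.61, 5.10 and 11.7 CPM in the mutants. The part of tendon in the collagen levels was not tested.

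Cell cycle genes were highest in mutant replicate 3 as well. The 5 of 10 that passed the filter all peaked there, and the 10 summed to 29.5 CPM against 1.32 to 6.69 CPM in the other libraries. Mki67, a marker of dividing cells, measured 0.225, 0.634 and 1.93 CPM in controls and 1.90, 0.551 and 9.98 CPM in the mutants, and Top2a reached 9.19 CPM in mutant replicate 3, against 2.49 CPM or less elsewhere. Control replicate 3, the other animal with high collagen, had a sum of 6.69 CPM, so the 2 animals differed more in these genes than in collagen. The part of dividing cells in the collagen levels was not tested.

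Markers of cartilage and bone were near 0: Matn1 and Ibsp had 0 counts in every library, 3 of 10 genes passed the filter (Sox9, Dmp1 and Matn3), and the sum was 2.27 to 8.67 CPM in the controls and 2.73 to 6.59 CPM in the mutants. Sox9 lay between 1.52 and 3.04 CPM, and Dmp1 reached 3.41 CPM in control replicate 3. Acan, the aggrecan gene of cartilage, named after its values were seen, reached 1.17 CPM in mutant replicate 3, the library with the most Col2a1. It measured 0.559 CPM in control replicate 3 and at most 0.0499 CPM elsewhere. Skin markers summed to 2.26 to 4.46 CPM, with Krt5 at 0 counts in all libraries, Krt10 at most 3.07 CPM and Dsp highest at 2.47 CPM in control replicate 2.

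The summed vessel, fat and immune markers did not have their 2 highest libraries in the 2 high-collagen animals, though some single genes did. Endothelial markers summed to 274 to 290 CPM in the controls and 274 to 401 CPM in the mutants, with Cdh5 and Pecam1 on top. Of the 8, 6 peaked in mutant replicate 3, against 19.1% of all genes tested. All 8 were higher in the mutants, against 49.8% of all genes, and 0 were called, against 0.199%. Smooth muscle and pericyte markers, led by Rgs5 and Acta2, summed to 534 to 635 CPM in the controls and 646 to 815 CPM in the mutants. Adipocyte markers, led by Fabp4 and Cfd, summed to 158 to 310 CPM and 242 to 419 CPM, highest in mutant replicate 2, which was low in collagen. Macrophage markers summed to 110 to 171 CPM and 127 to 216 CPM, highest in mutant replicate 1, with Lyz2 at 103 CPM there. In these lists too most genes were higher in the mutants and 0 were called. This held for 8 of 8 smooth muscle and pericyte, 6 of 6 adipocyte and 7 of 8 macrophage markers. Mrc1, a gene of resident macrophages, was highest in mutant replicate 3 (45.2 CPM) and control replicate 3 (33.2 CPM), against at most 22.3 CPM elsewhere. The endothelial gene Kdr (67.1 and 53.6 CPM) and the pericyte gene Pdgfrb (52.9 and 41.2 CPM), named after their values were seen, were also highest in these 2 animals, and the part of these cells in the collagen levels was not tested. Muscle fibre markers, led by Myh4 and Acta1, kept within a 1.36-fold range in their sum.

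**Figure D5:**
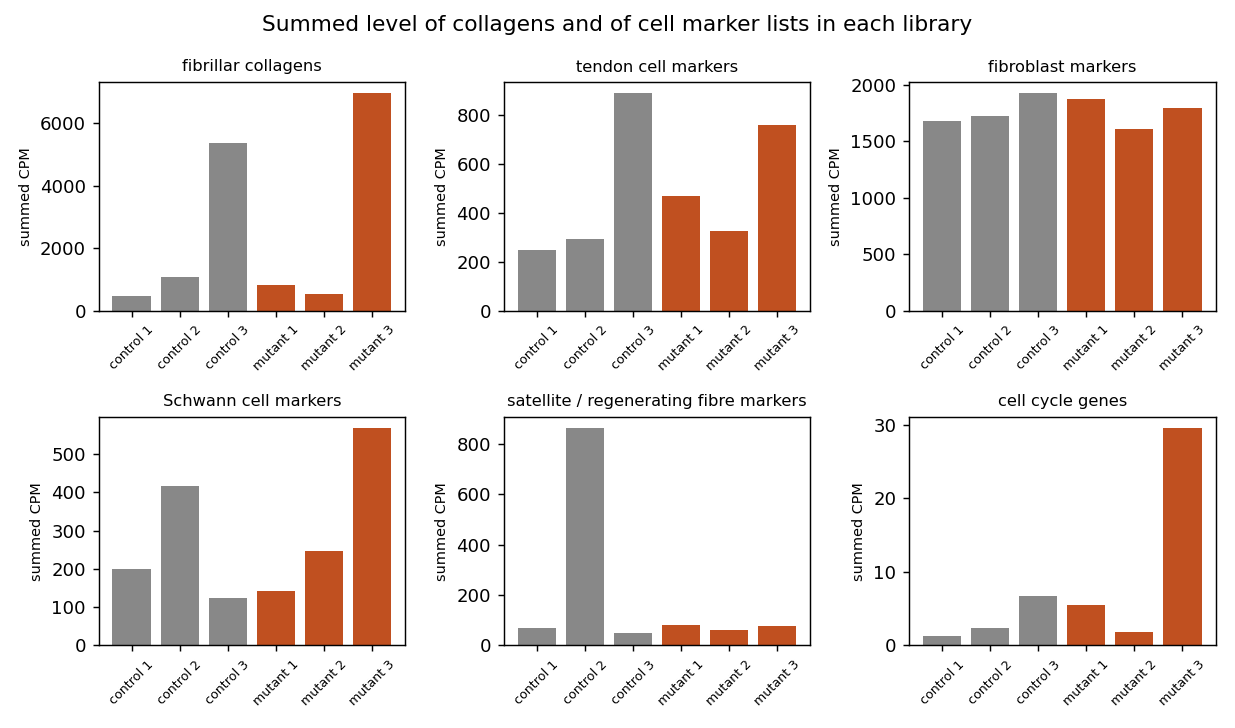
Summed CPM in each library of the fibrillar collagens and of 5 marker lists, controls in grey and mutants in orange, with a separate axis starting at 0 for each list. Fibrillar collagens and tendon cell markers are high in control replicate 3 and mutant replicate 3, the fibroblast marker sum lies between 1604 and 1925 CPM, regenerating fibre markers stand out in control replicate 2 and cell cycle genes in mutant replicate 3.

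Stretches of promoter are shown for 4 members of the 2 contrasting patterns: Col1a2 and Col3a1, high in the same 2 animals, and Col10a1 and Col19a1, high in control replicate 2 alone. RefSeq entries (build GRCm38.p6) were matched by symbol for 34 of 43 members, and each line gives the 150 bases before the annotated start, on the strand of the gene. Capitals mark matches, on either strand, to the CCAAT box (CCAAT), the E-box (CANNTG), the GC box (GGGCGG) or the TATA box (TATAAA), with the TATA box and the first E-box of Col3a1 directly adjoining.
Col1a2, chr6:4505468-4505617, plus strand: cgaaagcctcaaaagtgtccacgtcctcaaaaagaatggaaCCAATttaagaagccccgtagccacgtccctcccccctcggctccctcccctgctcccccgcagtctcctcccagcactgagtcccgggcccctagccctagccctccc
Col3a1, chr1:45311388-45311537, plus strand: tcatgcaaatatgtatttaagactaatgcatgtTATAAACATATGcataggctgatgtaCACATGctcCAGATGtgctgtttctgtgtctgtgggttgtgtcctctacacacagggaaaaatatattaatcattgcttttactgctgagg
Col10a1, chr10:34389831-34389980, plus strand: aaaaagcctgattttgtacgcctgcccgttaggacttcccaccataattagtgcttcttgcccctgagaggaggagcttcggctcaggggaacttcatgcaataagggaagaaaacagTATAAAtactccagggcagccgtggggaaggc
Col19a1, chr1:24587438-24587587, minus strand: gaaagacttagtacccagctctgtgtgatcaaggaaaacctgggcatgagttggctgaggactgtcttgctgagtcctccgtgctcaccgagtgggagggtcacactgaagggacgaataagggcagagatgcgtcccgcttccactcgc

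The 2 promoters of each pair did not share a match. Col1a2 held 1 CCAAT box and Col3a1 held 3 E-boxes and a TATA box. In Col10a1 a TATA box began 32 bases before the start, and Col19a1 held none of the 4 motifs. Over all 32851 promoter windows of this length, 24.5% held a CCAAT box, 47.7% an E-box, 28.6% a GC box and 7.57% a TATA box. Among 37 collagen windows these shares were 21.6%, 35.1%, 48.6% and 10.8%. A match is only a description of these letters. Col4a1 and Col4a2 lie head to head, on opposite strands, and their annotated starts overlap by 22 bases, so no separate promoter is shown for them.

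The libraries kept the strand of the RNA, and the collagen counts were nearly free of reads from the other strand. Over all genes, 6.60% to 7.20% of reads given to a strand lay opposite to the gene, against 0.124% to 0.432% over the collagen genes. In 34 of 43 members the share was below 1%. Col13a1 was the exception, with 14.6% of its strand-assigned reads on the other strand, 27.3% in control replicate 1 and 5.45% in mutant replicate 1. The deposited matrix counts both strands together, and it gave several members fewer reads than the strand-matched count. That count came to 105% of the matrix for Col4a2, 106% for Col6a6 and Col9a3, 107% for Col5a1 and 109.8% for Col4a3, the largest share. The log2 fold change of Col4a3 was -0.15 with the matrix and -0.26 with strand-matched counts. That of Col13a1 turned from -0.05 to 0.17. With strand-matched counts 25 of 42 members were higher in the mutants, the median was 0.09 and 0 were called.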

How the data were processed

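RNA-seq read pairs were counted per gene in 6 libraries of gastrocnemius muscle, made from poly(A) RNA with a directional kit per the labels. The authors deposited raw counts, as 1 matrix, which equalled the unstranded column in all 57010 genes, and as 1 file per library with strand-specific counts. STAR 2.7.11b, DESeq2 1.50.2, R 4.5.2 and GRCm39 are named in the submitters' processing notes, without an annotation release. The deposited results table holds log2 fold changes and their errors, Wald scores, p-values and mean normalized signal per the file headers. It was read for the members only. Entries that name no gene held 18.5% to 22.3% of read pairs and were left out.

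Groups were compared in edgeR 4.0.16 under R 4.3.3: TMM, filterByExpr at a minimum count of 10, its robust quasi-likelihood test with genotype as the only term, Benjamini-Hochberg over 15589 genes, called below 0.05. The SE is the log2 fold change divided by the root of F. Symbols matched 52029 IDs. Lengths came from GENCODE M21 (GRCm38). Animals are independent per the labels. The procedure was tested on simulated data. Alternatives were other normalizations, DESeq2 1.42.0, limma-voom (limma 3.58.1), other filters, a sex term, a replicate block, a fit of the males, fits that drop 1 library each, strand-matched counts and a threshold of 0.1. Plots used matplotlib 3.10.9.

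Members, lists and alternatives were chosen with earlier results of these data known. Values in every library are given for the 12 members with the highest mean CPM, the 8 with the smallest p and the 6 with the largest fold change above a mean of 0.5 CPM. Of each further list the 2 genes with the highest CPM are named and, outside cell markers, the 2 with the smallest p. A result that this rule would give is not reported here.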

Additional observations from a re-analysis of the deposited data

How the results depend on the processing

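The count of collagen genes called was 0 in every alternative run, and at an adjusted p below 0.1 as well. Col19a1 had no adjusted p in DESeq2. Their median log2 fold change, 0.06 with all libraries, ran from -0.84 without mutant replicate 3 to 0.63 without control replicate 3 among the fits that leave out 1 library. It was 0.95 with sex as a covariate and 0.95 in males only, which leaves 1 mutant. The count over all genes, 31, was 201 in DESeq2, 79 with no filter on low counts, 0 with sex as a covariate (882 at an unadjusted p below 0.05), 0 in males only (594) and 6 to 49 when each library was left out (49 without control replicate 2, 7 without mutant replicate 1, 6 without mutant replicate 2). With the replicate number as a block it was 11. Whether the replicate numbers pair the animals cannot be decided from the counts. Same-numbered libraries had correlations of 0.25, -0.06 and 0.23 in their deviations from the group means. Those of replicates 1 and 3 were the highest of all control and mutant combinations, whereas control replicate 2 did not deviate most like mutant replicate 2. Deviations from a mean of 3 animals depend on each other, so these values do not settle it. The block changed no call of a collagen gene. The direction of single collagens turned with the library left out, the lowest value coming without mutant replicate 3 and the highest without control replicate 3: Col1a2 -1.93 to 2.05, Col1a1 -2.25 to 2.41, Col3a1 -1.45 to 1.52, Col4a1 -1.12 to 0.51, Col4a2 -1.04 to 0.37, Col6a2 -0.73 to 1.03, Col6a1 -0.67 to 0.93, Col6a3 -1.04 to 0.70, Col15a1 -1.26 to 0.41, Col5a2 -1.23 to 0.70, Col5a1 -1.12 to 1.05, Col5a3 -1.53 to 0.48, Col11a1 -1.43 to 1.92, Col2a1 -1.83 to 3.14. Col26a1 ran from -1.25 without mutant replicate 3 to 1.67 without control replicate 2, and Col7a1 from -1.04 without control replicate 3 to 0.0655 without control replicate 2. With sex as a covariate, and again in males only, Col4a2 (0.92), Col6a3 (0.73), Col15a1 (0.95), Col5a2 (0.95), Col5a3 (0.43) and Col4a4 (0.23) turned upward. Col4a1, at 0.00449 with all libraries, turned to -0.00681 with RLE size factors, -0.00628 in DESeq2, -0.27 in limma-voom, -0.00607 with no filter and -0.26 with the replicate block, and Col5a1 to -0.000599 in limma-voom. Beyond fewer samples, the cause was not tested.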
